A study of Mus musculus with 8 samples.

Results

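The insulin-like growth factor (IGF) ligands, receptors and binding proteins were followed in ID8 IP2 cells with and without forced Notch3 signaling. The 10 genes were the rows named Igf1, Igf2, Igf1r, Igf2r, Igfbp2, Igfbp3, Igfbp4, Igfbp5, Igfbp6 and Igfbp7 among the 23284 gene symbols of the count tables. ID8 is a C57BL/6 mouse ovarian surface epithelial line used as an ovarian cancer model, and IP2 is a subline passaged through mice. In the Notch3IC lines, lentivirus from the pCCL vector carried the HA-tagged intracellular domain of Notch3 followed by IRES-GFP, and in the Control lines the pCCL vector was empty. Each of Sets 1 to 4 is an independent infection that gave a Control and a Notch3IC line, so there were 4 libraries per condition and 8 in all. Both conditions shared the parental cells, a luciferase and mCherry lentivirus and a medium with serum and an insulin, transferrin and selenium supplement, and the study's methods report that later testing pointed to mycoplasma in all ID8 IP2 lines. The promoter that drives Notch3IC and whether a line is clonal are not given in the sources used here. Reads counted on genes ranged from 19013578 to 28208072 in the Control libraries and from 15524262 to 27107061 in the Notch3IC libraries.

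IGF1 and IGF2 are secreted growth factors that signal through the receptor tyrosine kinase IGF1R, while IGF2R binds IGF2, carries it to lysosomes for breakdown and does not signal as a kinase. The IGF binding proteins (IGFBPs) are secreted proteins that hold IGFs in the fluid around cells, limit or prolong their access to the receptor, and are themselves cut by proteases such as PAPP-A. IGFBP7 is a related protein with low affinity for IGFs and is known as a matrix and vessel wall protein. In the ovary this system is best known for its part in follicle growth.

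The labels were first checked on the inserted gene and 3 genes that Notch signaling is known to turn on. Notch3 had 38.7, 40.6, 70.8 and 42.0 normalized counts in the Control lines of Sets 1, 2, 3 and 4, in that order, and 4319, 467, 9215 and 5839 in their Notch3IC partners. Here and below, normalized counts are counts scaled to a common library size. The groups did not overlap, but the Notch3IC line of Set 2 had by far the lowest value of its group, so that the log2 ratio within Set 2 was 3.51 against 6.79 to 7.10 in the other sets. Hey1, a transcriptional repressor, had 438 normalized counts in the Notch3IC line of Set 2 and 4077 to 10636 in the others, and Nrarp, a feedback regulator of Notch, had 221 against 3837 to 6029. Heyl, another repressor of the Hey family, had 215 there against 2154 to 6856, and the 4 genes were called higher in Notch3IC (adjusted p = 0.0169 for each, edgeR quasi-likelihood test). None of the 4 was called when both lines of Set 3 (adjusted p = 0.215 for each) or Set 4 (0.221 for each) were left out, where almost no gene of the whole table was. The notes of the labels name ovarian surface epithelium as the source, and 12 markers of this epithelium and of mesothelium each had more than 3 reads in at least 1 library, with summed levels of 33818.5 to 79847 normalized counts in Control.

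The windows upstream of 4 of these genes are shown because Igfbp4, Igfbp6 and Igfbp7 carry the differences described below and because Igf2r held the most matches to motifs of Notch effectors. They are the 250 bases before the RefSeq start in GRCm38.p6, written 5′ to 3′ on the gene's strand, with any match to the 3 motifs in capitals. The positions are chr11:99040994-99041243 on the plus strand for Igfbp4, chr15:102143936-102144185 on the plus strand for Igfbp6, chr5:77408046-77408295 on the minus strand for Igfbp7 and chr17:12769707-12769956 on the minus strand for Igf2r.
Igfbp4: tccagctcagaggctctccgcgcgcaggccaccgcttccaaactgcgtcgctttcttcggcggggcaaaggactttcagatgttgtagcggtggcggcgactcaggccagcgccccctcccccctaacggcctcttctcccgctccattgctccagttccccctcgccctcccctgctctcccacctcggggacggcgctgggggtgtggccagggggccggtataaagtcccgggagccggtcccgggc
Igfbp6: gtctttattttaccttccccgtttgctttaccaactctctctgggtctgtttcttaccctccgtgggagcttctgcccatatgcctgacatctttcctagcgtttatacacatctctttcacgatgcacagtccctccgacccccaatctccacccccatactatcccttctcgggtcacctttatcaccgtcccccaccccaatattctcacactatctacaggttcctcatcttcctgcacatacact
Igfbp7: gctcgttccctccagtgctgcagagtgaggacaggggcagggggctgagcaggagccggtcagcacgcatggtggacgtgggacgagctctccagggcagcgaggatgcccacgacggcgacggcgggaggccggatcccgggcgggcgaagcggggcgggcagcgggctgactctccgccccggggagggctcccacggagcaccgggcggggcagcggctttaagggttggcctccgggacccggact
Igf2r: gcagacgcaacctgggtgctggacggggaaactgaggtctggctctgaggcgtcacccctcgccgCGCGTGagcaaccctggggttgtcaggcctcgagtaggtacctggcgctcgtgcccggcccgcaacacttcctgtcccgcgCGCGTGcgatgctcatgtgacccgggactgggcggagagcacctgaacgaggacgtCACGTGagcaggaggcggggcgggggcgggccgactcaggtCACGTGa
The motifs were TGGGAA, the core bound by RBPJ, through which the Notch intracellular domain acts, and CACGTG and CACGCG, bound by Hes and Hey factors, and both strands were searched from 250 bases before to 50 after each start. RefSeq gave 14 such windows for the 10 genes. TGGGAA was found in 4 of them, in Igf1, Igf1r and 2 of the windows of Igf2, against 25.6% of all 32851 windows. CACGTG was found once in Igfbp2 and at 2 positions in Igf2r, 48 and 7 bases before the start, and occurs in 7.15% of all windows. CACGCG was found in Igf1r and at 2 positions in Igf2r, and occurs in 9.27% of all windows. The matches in Igf2r do not overlap each other. The windows of Igfbp3, Igfbp4, Igfbp5, Igfbp6 and Igfbp7 held none of these letters, which says nothing of whether the factors bind elsewhere.

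Per length of transcript, Igfbp4, Igfbp7, Igfbp3 and Igfbp6 had the highest mean levels of the 10 genes in both conditions, while Igfbp5 and both ligands were low. In Control, Igfbp4 had the highest level with 197 ± 87.4 CPM (counts scaled by library size) per kilobase of exon (SD, n = 4 libraries), followed by Igfbp7 with 176 ± 40.0, Igfbp3 with 131 ± 52.8, Igfbp6 with 88.9 ± 37.7 and Igfbp2 with 44.7 ± 11.5. The ranges of the neighbours in this order overlapped down to Igfbp6 and Igfbp2, although Igfbp3 was above Igfbp6, and Igfbp6 above Igfbp2, in each of the 4 Control libraries. Igf2r followed with 23.8 ± 2.92, Igf1r with 4.63 ± 0.430 and Igf1 with 0.834 ± 0.293, and none of these ranges overlapped that of the next gene. Igfbp5 with 0.0783 ± 0.0420 and Igf2 with 0.0202 ± 0.0071 were lowest and overlapped each other. In Notch3IC, Igfbp7 came first with 344.5 ± 103 and its range did not overlap that of Igfbp4, which followed with 104 ± 69.2. Igfbp3 with 78.4 ± 51.5, Igfbp6 with 43.3 ± 25.6, Igf2r with 31.8 ± 5.80 and Igfbp2 with 28.1 ± 26.1 came next with overlapping ranges. Parts of this order depended on the length used. Per length of the longest transcript in place of all exons, the Notch3IC line of Set 2 had more Igfbp4 (223) than Igfbp7 (198), so that their ranges overlapped, the Notch3IC mean of Igfbp2 (39.7) was above that of Igf2r (33.3), and in Control Igfbp6 was above Igfbp2 in 3 of 4 libraries and Igfbp7 above Igfbp3 in 1 of 4.

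**Figure D1:**
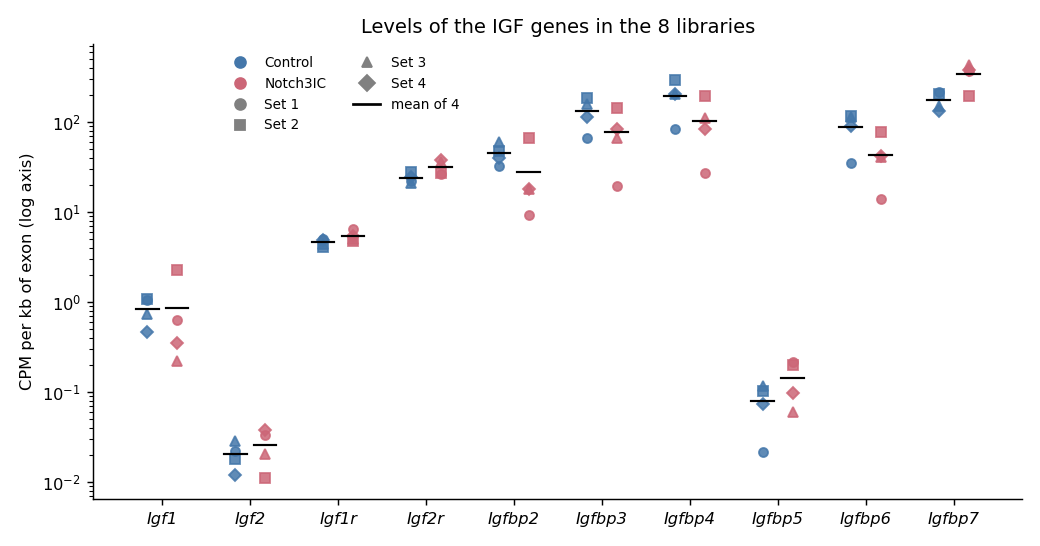
Levels per length of the 10 IGF genes in each library, as CPM per kilobase of exon on a log axis. Blue points are Control, red points Notch3IC, the shape gives the set and the bar the mean of 4 libraries; Igfbp4 leads in Control with a mean of 197 and Igfbp7 in Notch3IC with 344.5.

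In the comparison of Notch3IC with Control by condition alone, none of the 9 genes tested was called, and Igf2 had too few counts to be tested. The calls needed both an adjusted p under 0.1, by edgeR's two-sided quasi-likelihood test with Benjamini-Hochberg adjustment over the 12430 genes tested, and a change of 1 or more on the log2 scale in either direction. Of all genes tested, 3.40% were called higher in Notch3IC and 0.740% lower. At an unadjusted p under 0.05 there were 2 of the 9, Igf2r and Igfbp7, against 18.4% of all genes tested. DESeq2 called 0 of the 9, against 5.05% of its genes called higher and 1.37% lower. Among the 9, only Igfbp7 passed the p threshold by DESeq2 (log2 fold change 0.95, adjusted p = 0.0077), and it was short of the fold limit. With the matched set as a replicate block, Igfbp4 and Igfbp6 were called lower, against a background of 2.53% of genes called lower, and none of the 9 was called higher, against 5.19%. Without the fold limit the block gave 3 higher, Igf1r, Igf2r and Igfbp7, against 14.9% of all genes, and 3 lower, Igfbp3, Igfbp4 and Igfbp6, against 12.1%. Igfbp3, Igfbp4 and Igfbp6 were lower in Notch3IC in 4 of 4 sets, as were 19.4% of the genes tested, and Igf1r was higher in 4 of 4 sets, as were 21.0%. In no member did the values of the Control and Notch3IC libraries stay apart. Of the genes tested, 10.8% had groups that did not overlap, so that 0 of the 9 is near this share. The median log2 fold change was 0.04 over the 9 genes and -0.01 over all genes tested. By condition alone, almost no gene of the whole table was called when both lines of Set 3 or of Set 4 were left out. With the block, far fewer genes were called without Set 1, Set 3 or Set 4 than with all sets. Both limits apply to the calls described below as lost in these fits.

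**Figure D2:**
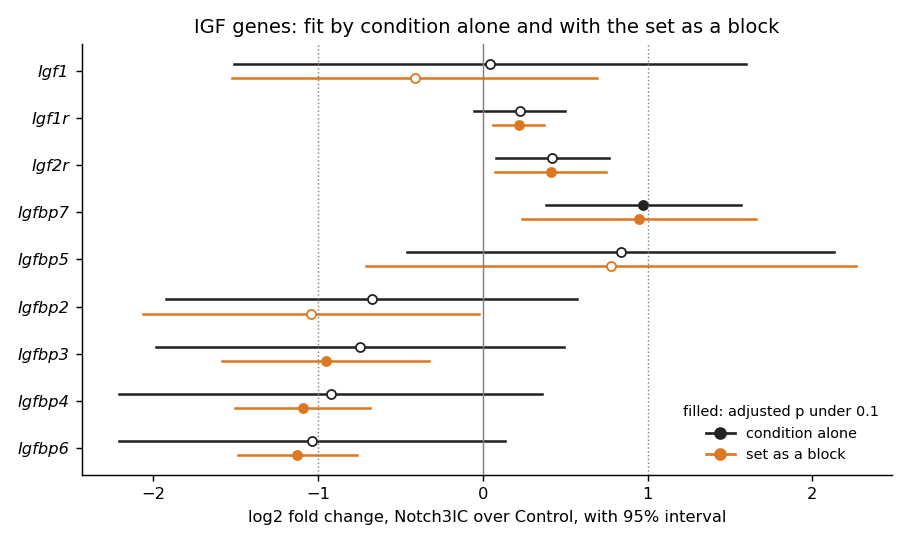
Log2 fold change of Notch3IC over Control for the 9 genes tested, with its 95% interval, from the fit by condition alone (black) and with the set as a block (orange). Filled points have an adjusted p under 0.1 and dotted lines mark a log2 fold change of 1 in either direction; the intervals of Igfbp4 and Igfbp6 lie below 0 with the block and cross 0 without it.

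Igf1 showed no common direction. Igf1, on chromosome 10 from 87858265 to 87937042 (GRCm38, plus strand), had 242, 252, 170 and 107 normalized counts in Control Sets 1 to 4 and 144, 524, 51.5 and 80.2 in their Notch3IC partners. The Notch3IC line was lower in 3 sets and higher in Set 2, whose value was the highest of the 8. The log2 ratio within a set was -0.74, 1.06, -1.72 and -0.41 in Sets 1 to 4. Overall it was 0.04 (SE 0.68, adjusted p = 0.984, edgeR) by condition alone, with a 95% interval of -1.51 to 1.59, and -0.41 (adjusted p = 0.541) with the replicate block. Without Set 2 it was -0.91 (adjusted p = 0.305) by condition alone and -0.94 (adjusted p = 0.0415) with the block, past the p threshold and short of the fold limit.

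Igf2 was barely detected in this line. Its reads numbered 3, 2, 4 and 2 in Control Sets 1 to 4 and 4, 1, 3 and 6 in the Notch3IC lines, so a difference was not detectable at this depth and no fold is given. Igf2 lies on chromosome 7 from 142650766 to 142666816, and 62.8% of its exon bases are shared on the same strand with the annotated gene Gm49394. H19, the noncoding RNA whose gene lies 72622 bases from Igf2 and which is known to share its imprinting control, is described with the imprinted genes.

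Both receptor genes differed little between the conditions. Igf1r, the signaling receptor (chromosome 7, 67952827 to 68233668), had 1972, 1614, 1732 and 1931 normalized counts in Control and 2552, 1848, 1976 and 2092 in Notch3IC. Each Notch3IC line was above its own Control line, with log2 ratios of 0.37, 0.20, 0.19 and 0.12, but the groups overlapped. Overall the log2 fold change was 0.22 (SE 0.12, adjusted p = 0.369) by condition alone and 0.22 (SE 0.06, adjusted p = 0.0685) with the replicate block, under the fold limit in both. Leaving out Set 1, Set 3 or Set 4 from the block fit gave an adjusted p of 0.188, 0.242 or 0.194. Igf2r, the scavenging receptor (chromosome 17, 12682406 to 12769664), had 4829.9, 5994, 4537 and 5282 normalized counts in Control and 5739.7, 5931, 7723 and 8241 in Notch3IC. The Notch3IC lines of Sets 3 and 4 were the highest of the 8, and in Set 2 the values were nearly equal, with a log2 ratio of -0.01. Its overall log2 fold change was 0.42 (SE 0.15, adjusted p = 0.179) by condition alone and 0.41 (adjusted p = 0.0938) with the block. Its adjusted p with the block was 0.201 without Set 1, 0.305 without Set 3 and 0.318 without Set 4. Airn, the antisense RNA known to silence the paternal Igf2r copy, overlaps Igf2r over 28354 bases of gene body without shared exon bases, and was chosen for this position after values were seen. It had 67.0 ± 16.6 normalized counts in Control and 49.97 ± 14.7 in Notch3IC (-0.42 on the log2 scale, adjusted p = 0.519).

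The binding proteins showed 2 patterns, with Igfbp2, Igfbp3, Igfbp4 and Igfbp6 lower on average in Notch3IC and Igfbp7 higher. Igfbp4, the main substrate of PAPP-A (chromosome 11, 99041244 to 99054392), had 8514, 30438, 21288 and 20956 normalized counts in Control Sets 1 to 4 and 2793, 19934, 11400.1 and 8717 in Notch3IC. Every Notch3IC line was below its own Control line, with log2 ratios of -1.61, -0.61, -0.90 and -1.26, but both lines of Set 1 were the lowest of their group, so the groups overlapped. The Control lines averaged 20299 ± 9002 and the Notch3IC lines 10711 ± 7123, by condition alone a log2 fold change of -0.92 (SE 0.56, adjusted p = 0.436). With the replicate block it was -1.09 (SE 0.17, adjusted p = 0.0275, 95% interval -1.51 to -0.68), and Igfbp4 was called lower. In the block fit the adjusted p was 0.123 without Set 1, 0.120 without Set 3, 0.125 without Set 4 and 0.0026 without Set 2. The log2 fold change in these fits was -0.93, -1.16, -1.03 and -1.255, in that order. Far fewer genes of the whole table were called without Set 1, Set 3 or Set 4 than with all sets.

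Igfbp6, a binding protein that prefers IGF2 (chromosome 15, 102144362 to 102149511), had 911, 3019.7, 2947 and 2342 normalized counts in Control and 363, 1986, 1062 and 1082 in Notch3IC. It followed the same pattern, with both lines of Set 1 lowest in their group and every Notch3IC line below its Control line, at log2 ratios of -1.33, -0.61, -1.47 and -1.11. The Control lines averaged 2305 ± 978 and the Notch3IC lines 1123 ± 665. By edgeR the log2 fold change was -1.04 (SE 0.51, adjusted p = 0.329) by condition alone and -1.13 (SE 0.15, adjusted p = 0.0228, 95% interval -1.49 to -0.77) with the replicate block, where Igfbp6 was called lower. By condition alone it was also called lower without Set 1 (log2 fold change -1.02, adjusted p = 0.0961). In the block fit the call was lost without Set 1 (adjusted p = 0.126), Set 3 (0.102) or Set 4 (0.1001). The log2 fold change in these fits was -1.07, -1.01 and -1.13, and far fewer genes of the whole table were called in them than with all sets.

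Igfbp3, the main carrier of IGFs in blood (chromosome 11, 7206086 to 7213923), had 4825, 13676, 11493 and 8375 normalized counts in Control and 1423, 10512, 4819 and 6143 in Notch3IC. The log2 ratios of -1.76, -0.38, -1.25 and -0.45 were all below 0, with the smallest in Sets 2 and 4. Over all sets the log2 fold change was -0.75 (SE 0.54, adjusted p = 0.523) by condition alone and -0.95 (SE 0.25, adjusted p = 0.0625) with the replicate block, short of the fold limit and so not called. It was called lower with the block when Set 2 was left out (-1.15, adjusted p = 0.0192), and its adjusted p was 0.148 without Set 1, 0.252 without Set 3 and 0.180 without Set 4. Igfbp2, which can also bind integrins (chromosome 1, 72824503 to 72852474), had 1412, 2031, 2563 and 1701 normalized counts in Control and 403.5, 2875, 778.5 and 783.5 in Notch3IC. It was lower in the Notch3IC lines of Sets 1, 3 and 4, with log2 ratios of -1.81, -1.72 and -1.12, and higher in that of Set 2, with 0.50. It was not called by condition alone (log2 fold change -0.68, SE 0.55, adjusted p = 0.574) or with the block (-1.04, adjusted p = 0.137). It was called lower by condition alone once the Notch3IC line of Set 2 was left out (-1.56, adjusted p = 0.0158), and likewise without both lines of Set 2 (-1.53, adjusted p = 0.0441) or with the block without Set 2 (-1.54, adjusted p = 0.0016). Set 2 is also the set with the least Notch3 and Notch target RNA in its Notch3IC line, and the part of this in the result was not tested.

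**Figure D3:**
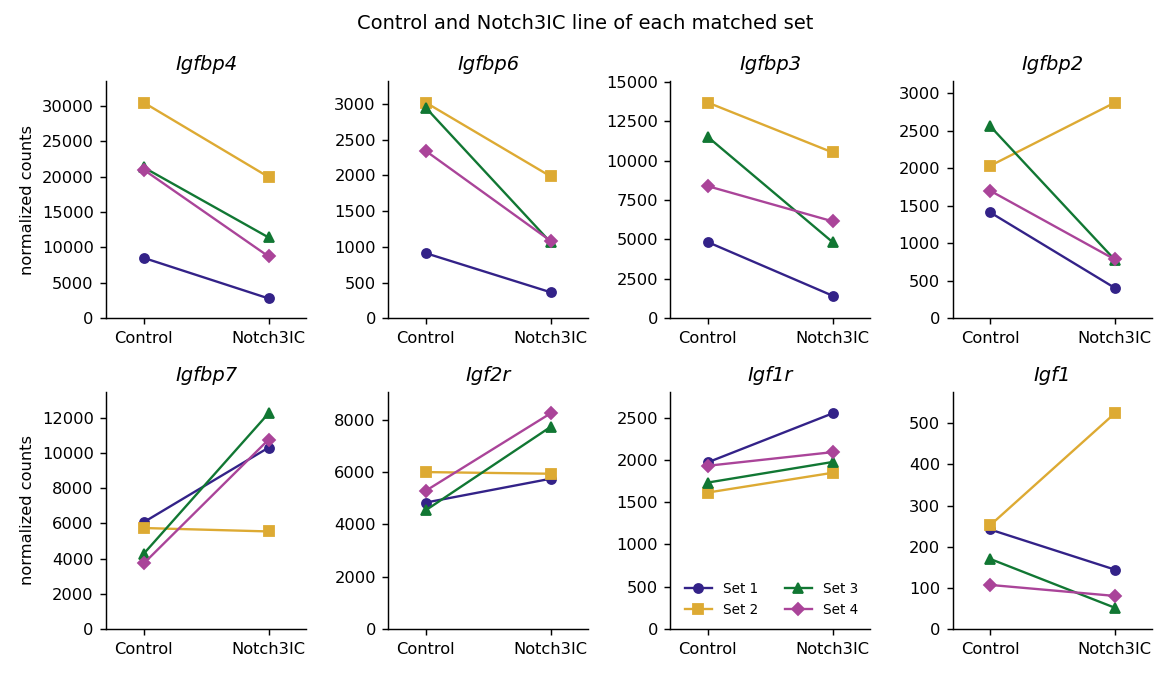
Normalized counts in the Control and the Notch3IC line of each set for 8 IGF genes, on axes that start at 0, with a line joining the 2 lines of a set. Igfbp4, Igfbp6 and Igfbp3 slope down in all 4 sets and Igf1r slopes up, while Igfbp2 and Igf1 slope up in Set 2 and down in the other sets and Igfbp7 is flat there.

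Igfbp7 moved the other way in 3 of the 4 sets. Igfbp7 (chromosome 5, 77349240 to 77408041) had 6066, 5734, 4274 and 3722.5 normalized counts in Control Sets 1 to 4 and 10302.5, 5538.5, 12253 and 10758.5 in Notch3IC. The Notch3IC lines of Sets 1, 3 and 4 were above every Control line, and that of Set 2 lay within the Control range. The log2 ratios were 0.76, -0.05, 1.52 and 1.53, and the Notch3IC mean of 9713 ± 2905 was 1.96 times the Control mean of 4949 ± 1129. By condition alone the log2 fold change was 0.97 (SE 0.26, adjusted p = 0.0848, 95% interval 0.38 to 1.56), past the p threshold, as 6.69% of all genes were in either direction, but short of the fold limit. That adjusted p rose above the threshold when the Control line of Set 2 (0.115), Set 3 (0.234) or Set 4 (0.240), the Notch3IC line of Set 1 (0.142), Set 3 (0.222) or Set 4 (0.231), or both lines of Set 1 (0.128), Set 3 (0.520) or Set 4 (0.568) were left out. By condition alone it passed both limits when the Control line of Set 1 (1.08, adjusted p = 0.0848), the Notch3IC line of Set 2 (1.16, adjusted p = 0.0085) or both lines of Set 2 (1.25, adjusted p = 0.0178) were left out. With the block the log2 change was 0.95 (SE 0.29, adjusted p = 0.0808), and 1.27 (adjusted p = 0.0045) without Set 2, past both limits. In the block fit the adjusted p was 0.193 without Set 1, 0.298 without Set 3 and 0.309 without Set 4. Exons of Polr2b on the opposite strand cover 7.03% of the exon bases of Igfbp7, and without strand in the counts the reads of these bases cannot be told apart.

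Igfbp5, a binding protein that also attaches to the matrix (chromosome 1, 72857932 to 72874884), had only 3, 12, 17 and 13 reads in Control and 27, 19, 9 and 16 in Notch3IC. Its log2 ratio was 3.14 in Set 1, where the Control line had 3 reads, and between -0.93 and 0.94 in the others. Its overall log2 fold change of 0.84 (SE 0.57, adjusted p = 0.492) did not pass the test. Igfbp5 lies 5457 bases from Igfbp2 on the opposite strand. Igfbp1, the neighbour of Igfbp3 at 3539 bases, had at most 3 reads in any library.

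Set against each other per length, the binding proteins had sums that overlapped between the conditions, and so did the share of Igfbp7. The summed level of Igfbp2 to Igfbp7 was 432, 850, 689 and 580 CPM per kilobase in Control Sets 1 to 4 and 436, 677.5, 670 and 610 in Notch3IC. Igfbp7 made up 49.8%, 23.9%, 22.0% and 22.8% of this sum in Control and 83.9%, 29.0%, 64.8% and 62.5% in Notch3IC. In every set the share was larger in the Notch3IC line, least so in Set 2, and the Control line of Set 1 had a larger share than the Notch3IC line of Set 2. Without Igfbp5 and Igfbp7, the levels of Igfbp2, Igfbp3, Igfbp4 and Igfbp6 summed to 217, 646, 537 and 448 in Control and to 70.0, 481, 236 and 229 in Notch3IC. These shares combine values already described and were not tested.

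**Figure D4:**
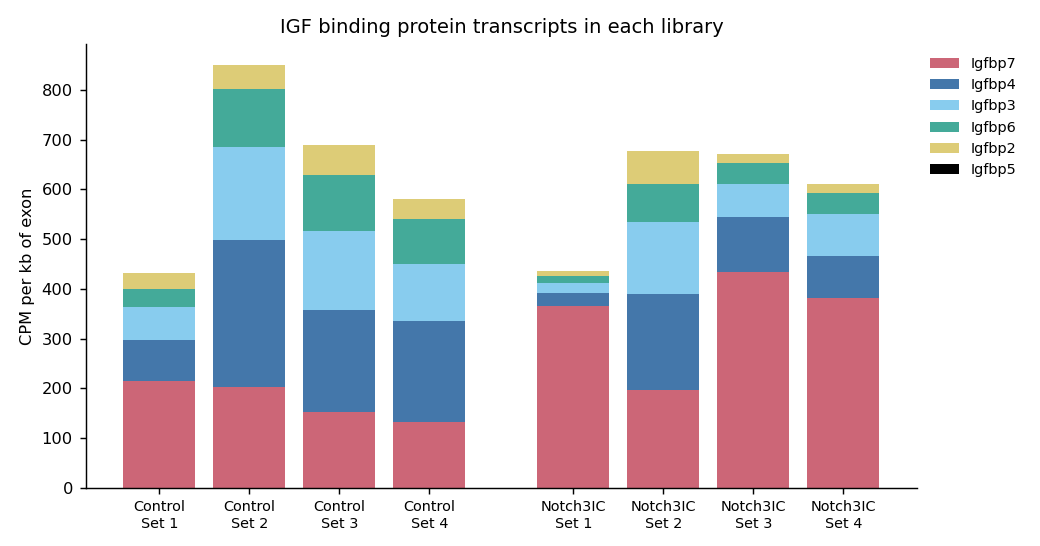
Stacked levels per length of the 6 binding protein genes in each library, in CPM per kilobase of exon, on an axis that starts at 0. Igfbp7 takes 22.0% to 49.8% of the stack in Control and 29.0% to 83.9% in Notch3IC, with Set 2 nearest to its Control; Igfbp5 is too low to be seen.

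The 2 genes called with the block followed each other across libraries. Over the 8 libraries the log2 CPM of Igfbp4 correlated with those of Igfbp6 at a Pearson r of 0.983 and with those of Igfbp3 at 0.972, which placed Igfbp6 14th and Igfbp3 44th among all genes tested. The genes most like Igfbp4 were Sv2a (0.994), Rab27b (0.993) and Tspan5 (0.991), and those most like Igfbp6 were Nxnl2 (0.994), Gpm6a (0.992) and Polm (0.992). None of these 6 was called by condition alone. Igfbp7 ran opposite, with -0.67 against Igfbp4 and -0.73 against Igfbp6. These values describe 8 libraries that share condition, set and depth.

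Markers of the labelled cell type were also lower on average in Notch3IC. Of the 12 markers of ovarian surface epithelium and mesothelium, 11 were tested, 10 had a log2 fold change below 0 and 2 were called lower by condition alone, Msln (mesothelin, -2.60, adjusted p = 0.0625) and Upk1b (a uroplakin, -2.19, adjusted p = 0.0762). With the replicate block 5 were called lower, by DESeq2 4, and the median log2 fold change was -0.80. Over all genes tested, 6410 of 12430 had a log2 fold change below 0, and 0.740% were called lower by condition alone, 2.53% with the block and 1.37% by DESeq2. Msln and Upk1b lost their calls when either line of Set 3 or of Set 4 was left out (adjusted p = 0.162 to 0.195 for Msln and 0.190 to 0.232 for Upk1b) or both lines of Set 3 (0.401 and 0.454) or Set 4 (0.493 and 0.541) were, and Upk1b also without the Control line of Set 2 (0.114). Without both lines of Set 2 their log2 fold changes were -3.32 and -2.97, and that of Upk1b was -2.92 without the Notch3IC line of Set 2. Their summed level was 33818.5, 52778, 79847 and 76259.7 normalized counts in Control Sets 1 to 4 and 16344, 35524.5, 32904.5 and 27009 in Notch3IC. Upk3b, the most abundant of them in Control, averaged 21809 in Control and 6631 in Notch3IC. Both lines of Set 1 were the lowest of their group, as for Igfbp4 and Igfbp6, and every Notch3IC line was below its Control line. The part of this list in the IGF results was not tested, and fewer cells of a type cannot be told apart from less RNA per cell in such libraries.

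Markers of other cells were low or mixed. Among 6 fibroblast and pericyte markers, 3 were tested and 1 was called higher, Pdgfrb, a receptor of mural cells (log2 fold change 5.99, adjusted p = 0.0169, and 0.215 and 0.221 without Sets 3 and 4), against 3.40% of all genes called higher. Its log2 fold change was 5.31 without Set 4, 7.06 without Set 2 and 6.76 without the Control line of Set 2. Rgs5, another gene of this list, averaged 2.35 normalized counts in Control and 34.4 in Notch3IC, and its groups did not overlap. It was higher in the Notch3IC line of all 4 sets, but was not among the genes tested and was named after its values were seen. Dcn, the matrix proteoglycan decorin, averaged 5903 ± 3426.5 normalized counts in Control and 4274 ± 2571 in Notch3IC and was lower in the Notch3IC line of all 4 sets (-0.47, adjusted p = 0.809 by condition alone and -0.54, adjusted p = 0.0275 with the block, short of the fold limit), and was named after its values were seen. The summed level of this list was 3355, 15900.2, 12652 and 10683 in Control and 7089, 14335, 21424 and 23062 in Notch3IC. Dcn had the highest mean of the list in Control and Pdgfra, with 6527, in Notch3IC, while Thy1 had at most 3 reads in any library. Of the 6 leukocyte markers, Adgre1 and Cd3e had no read in any library, Ptprc and Itgam had at most 3, and Cd68 averaged 80.8 in Control and 61.1 in Notch3IC. The 4 endothelial markers summed to 24.1 in Control and 35.3 in Notch3IC on average, led by Pecam1, with Cdh5 and Tek at most at 3 reads. The 4 granulosa markers summed to 40.3 and 46.9, led by Inha, and Fshr had no read. Alb, Ttr and Apoa1, markers of liver, the main source of circulating IGF1, summed to at most 1.98 in both lines of Sets 1 and 2, to 374 and 724 in the Control lines of Sets 3 and 4 and to 337 and 541 in their Notch3IC lines, led by Alb. They thus separated Sets 3 and 4 from Sets 1 and 2 and not the conditions, and their part in the values of the IGF genes was not tested.

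The proteases that cut IGFBPs were next. Among 9 proteases of IGFBPs and their inhibitors, 6 were tested, all 6 had a log2 fold change above 0, and 1 was called higher by condition alone and 4 with the replicate block, with a median log2 fold change of 1.27. DESeq2 by condition alone called 4 higher. Over all genes tested, 48.4% had a log2 fold change above 0, and 3.40% were called higher by condition alone, 5.19% with the block and 5.05% by DESeq2. Pappa, which encodes PAPP-A, the protease that cuts IGFBP4, had 61.4, 25.0, 34.4 and 7.13 normalized counts in Control and 1120.0, 167, 200.4 and 247 in Notch3IC. The groups did not overlap, and the Notch3IC line of Set 1 was the highest. Pappa was called with a log2 fold change of 3.76 (SE 0.83, adjusted p = 0.0485), which was 2.70 (adjusted p = 0.0683) without that line. The call was lost when the Control line of Set 2 (adjusted p = 0.104), Set 3 (0.148) or Set 4 (0.139) or the Notch3IC line of Set 4 (0.116) was left out, and likewise with both lines of Set 3 (0.274) or Set 4 (0.317) left out. Ctsd, the lysosomal protease cathepsin D, averaged 6646 ± 1387 in Control and 7933 ± 1299 in Notch3IC and was not called (0.25, adjusted p = 0.517). Adam12, a membrane protease, averaged 1139 ± 918.5 and 3078.5 ± 445 and was called by edgeR with the block (1.87, adjusted p = 0.0674) but not by condition alone (1.44, adjusted p = 0.232), where DESeq2 called it (1.42, adjusted p = 0.0751). Stc2, an inhibitor of PAPP-A, and Plat, a plasminogen activator, were the others called with the block (adjusted p = 0.0297 and 0.0822) and by DESeq2 by condition alone (0.0678 and 0.0423), and were named after their values were seen.

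Among 8 further binding, carrier and related proteins, 3 were tested, of which 1 was called higher and 1 lower, against 3.40% and 0.740% of all genes. Htra1 and Htra3 encode secreted serine proteases with an IGFBP-like domain. Htra1 had 6306.5, 3790.4, 4615 and 4526 normalized counts in Control and 1847, 3084, 1705 and 1733 in Notch3IC, with the Notch3IC line of Set 2 nearest to Control (log2 fold change -1.20, SE 0.23, adjusted p = 0.0365). Htra3 had 80.3, 177, 69.8 and 103 in Control and 381, 296, 512 and 641 in Notch3IC (2.10, SE 0.35, adjusted p = 0.0248). In neither gene did the groups overlap, and the 2 moved in opposite directions. The call of Htra1 was lost when the Control or the Notch3IC line of Set 3 (adjusted p = 0.108 for both) or of Set 4 (0.116 and 0.126) was left out, with both lines of Set 3 (0.274) or Set 4 (0.339) left out, and without Set 1, where -0.998 was short of the limit. That of Htra3 was lost when the Control line of Set 3 or of Set 4 (adjusted p = 0.104 for both), or both lines of Set 3 (0.246) or Set 4 (0.301), were left out. Kazald1, an IGFBP-like protein, averaged 797 ± 290 in Control and 1040.3 ± 477 in Notch3IC (0.38, adjusted p = 0.708).

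Genes below the receptors were counted against the same background. Of 20 genes of the insulin receptor family and proximal signaling, 17 were tested and edgeR and DESeq2 called 0 of them by condition alone, as did edgeR with the replicate block, although 6 had an unadjusted p under 0.05 by condition alone, against 18.4% of all genes tested, with a median log2 fold change of 0.12. Of all genes, 3.40% were called higher and 0.740% lower by condition alone, 5.19% and 2.53% with the block and 5.05% and 1.37% by DESeq2, so that 0 of 17 is near the background. Akt1, the most abundant of these kinase pathway genes, averaged 9829.7 ± 1879 in Control and 10256 ± 1635 in Notch3IC (0.06, adjusted p = 0.892). The insulin receptor gene Insr, named after its values were seen, had 1287 ± 154 and 1288 ± 130 (0.00, adjusted p = 0.996).

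Igf2bp2 was the 1 gene called among the 3 IGF2 mRNA binding proteins (3.40% of all genes were called higher), which bind the transcripts of IGF2 and of many other genes. It had 782, 435.5, 516 and 639 normalized counts in Control and 1659, 767, 1595 and 1883 in Notch3IC, and was higher in each Notch3IC line than in its Control line, although the Notch3IC value of Set 2 was below the Control value of Set 1. Its log2 fold change was 1.32 (SE 0.29, adjusted p = 0.0476). The call was lost when the Control line of Set 3 (adjusted p = 0.148) or Set 4 (0.144), the Notch3IC line of Set 3 (0.126) or Set 4 (0.149), or both lines of Set 3 (0.344) or Set 4 (0.391) were left out. Igf2bp1 averaged 263 ± 117 and 209 ± 61.4 (-0.33, adjusted p = 0.678) and Igf2bp3 36.3 ± 8.10 and 40.5 ± 15.2 (0.15, adjusted p = 0.861).

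Imprinted growth genes included 3 of the called genes. Of 12 genes, 8 were tested, 3 were called higher by condition alone and 4 with the replicate block or by DESeq2, none was called lower, and the median log2 fold change was 1.27. The shares of all genes called higher were 3.40% by condition alone, 5.19% with the block and 5.05% by DESeq2. H19 had 11, 8, 3 and 0 reads in Control Sets 1 to 4 and 125, 25, 163 and 68 in Notch3IC (log2 fold change 4.08, SE 0.84, adjusted p = 0.0422). Its groups did not overlap, but every Control value was low, so the size of the fold is uncertain. Plagl1, a transcription factor known to act on the H19 and Igf2 locus, had 23, 6, 4 and 13 reads in Control and 129, 25, 71 and 154 in Notch3IC (3.08, SE 0.62, adjusted p = 0.0392). Peg10, a gene derived from a retrotransposon, was far more abundant, with 2141.5, 1649, 1651 and 1046 normalized counts in Control and 11529, 5508, 5518 and 10765 in Notch3IC, again without overlap (2.36, SE 0.32, adjusted p = 0.0169). Within the Notch3IC group all 3 were lowest in the line of Set 2. H19 lost its call when the Control line of Set 3 (adjusted p = 0.143) or Set 4 (0.103), the Notch3IC line of Set 3 (0.114) or Set 4 (0.108), or both lines of Set 3 (0.328) or Set 4 (0.238) were left out. Plagl1 lost it when the Control line of Set 3 (0.113) or Set 4 (0.139), the Notch3IC line of Set 4 (0.126), or both lines of Set 3 (0.246) or Set 4 (0.381) were left out. Peg10 lost it only with both lines of Set 3 (0.215) or Set 4 (0.221) left out, where almost no gene of the whole table was called. H19 had a log2 fold change of 4.68 without Set 2 and Plagl1 one of 3.69 without the Control line of Set 1. Sgce, the neighbour of Peg10 and known to be imprinted with it, averaged 707 ± 78.3 and 1209.8 ± 348 (0.78, adjusted p = 0.0841, under the fold limit), and Peg3 132 ± 65.1 and 251 ± 118 (0.93, adjusted p = 0.327). Peg3 was higher in the Notch3IC line of all 4 sets, and by edgeR with the block its log2 fold change was 0.94 (adjusted p = 0.0280), under the fold limit.

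**Figure D5:**
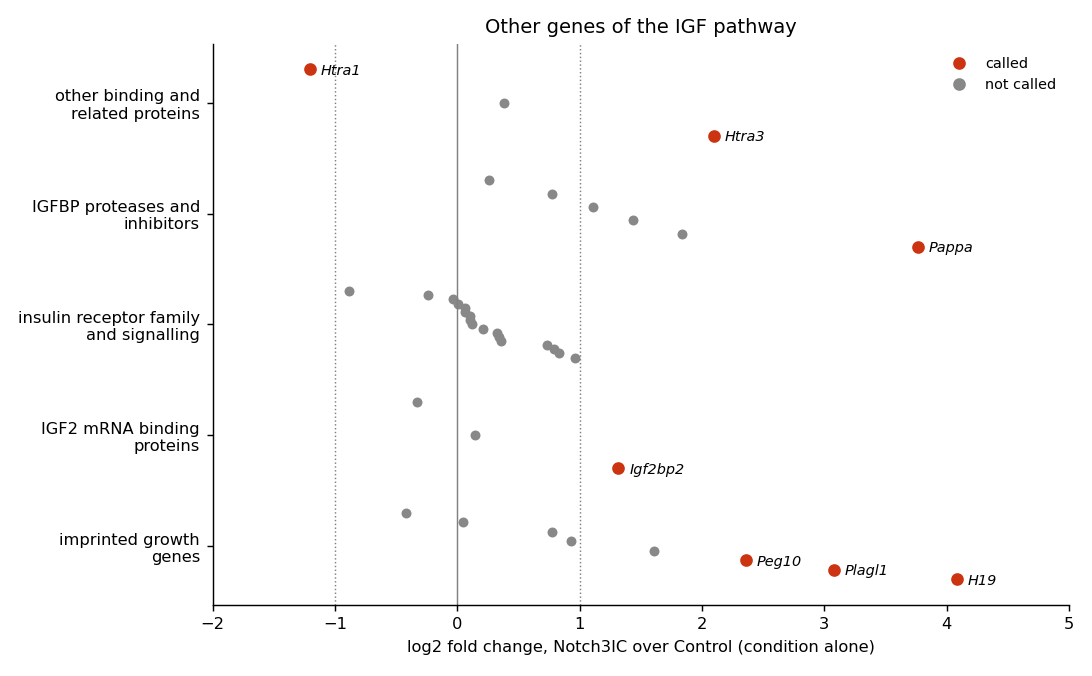
Log2 fold change of Notch3IC over Control, by condition alone, for the tested genes of 5 lists around the IGF system, one point per gene and spread vertically only to be seen. Red points are called and named, gray points are not, and dotted lines mark a log2 fold change of 1 in either direction; 6 of the 7 called genes are higher in Notch3IC and Htra1 is lower.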

How the data were processed

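Both lines of each of the 4 sets were sequenced as poly-A selected, single-end libraries. The authors deposited whole-number counts of reads per gene symbol, without normalization, and the submitters' processing notes name TopHat, Cufflinks, DESeq and the build mm9. Versions, annotation and strandedness are not given in the sources used here. The files give symbols only, so positions and exon lengths are those of GENCODE M21 on GRCm38, and promoter windows are from RefSeq, GRCm38.p6. Protein sequences were not used here.

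Of 23284 symbols, 17359 had a count and 12430 passed edgeR's expression filter. Counts were compared with edgeR 4.0.16 (TMM, robust quasi-likelihood F test) in R 4.3.3, with condition as the only term (the study names no set term) and with the study's thresholds. The standard error is the log2 fold change divided by the square root of F. Ratios within a set used normalized counts with a pseudocount of 0.5. The biological coefficient of variation was 26.3%, and 14.1% with the set as a block. Set numbers pair the lines by the study's description, and deviations from the group means correlated at 0.80, 0.40, 0.57 and 0.41 within Sets 1 to 4 against -0.50 to 0.37 across sets. The lines of a set come from 1 infection each, and p-values measure the spread between these lines.

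The members, lists and tests were chosen with earlier results of these data known. Named were the 10 members, Notch3, Hey1, Heyl and Nrarp, every called gene of the 5 pathway lists with the 2 most abundant of the others, and the 3 genes most correlated with each member called. The called markers were also named. Some single genes of these lists are not reported here. Alternatives were DESeq2 1.42.0, RLE, upper-quartile and library-total scaling, no filter, a filter of 10 counts in all libraries, a stricter adjusted p of 0.05, no fold limit, the set as a replicate block, and each library or set left out. DESeq2 with the block and the block with each set left out were added after seeing the data. No 2 libraries agreed within sampling noise. The test was also tried on simulated data, and the outcome of that trial is not reported or used here. Figures were drawn with Matplotlib 3.10.9.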

Additional observations from a re-analysis of the deposited data

Results flagged for a closer look

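Among the 22 groups of 4 libraries examined for the members and the genes that check the labels, 2 held a library far from the other 3, where chance gives about 1 in 20 groups, or 1.1. Igfbp2 had 2874.7 normalized counts in the Notch3IC line of Set 2 against 403.5 to 783.5 in the other Notch3IC lines. Notch3 had 70.8 normalized counts in the Control line of Set 3 against 38.7 to 42.0 in the other Control lines.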

How the results depend on the processing

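The set as a replicate block moved the genes called over all genes from 423 higher and 92 lower to 645 and 315, and the IGF genes called lower from 0 to 2, Igfbp4 and Igfbp6, while it changed the direction of Igf1 alone (-0.41) among the members. DESeq2 called 708 higher and 192 lower, and with the block 731 and 339, with 0 and 2 members lower. An adjusted p under 0.05 left 48 genes lower, and no fold limit gave 210 lower and 1 member higher. Leaving out 1 library or set by condition alone gave 0 to 702 genes higher, 0 to 305 lower, 0 to 1 members higher and 0 to 1 lower, with Igfbp7 higher and Igfbp2 lower at once without the Notch3IC line of Set 2 or both lines of that set. With the block and without Sets 1, 2, 3 and 4 in turn there were 46, 904, 59 and 129 genes higher and 23, 426, 22 and 30 lower, and without Set 2 there were 1 member higher and 4 lower. By edgeR, condition alone called 1 gene higher and 0 lower without Set 3, and 0 in either direction without Set 4, with 1101 and 1011 genes at an unadjusted p under 0.05. DESeq2 was not run on these subsets. Igf1 reversed in 10 of 24 alternatives. Its log2 fold change was -0.48 by DESeq2 with the block, -0.30, -0.94, -0.018 and -0.41 with the block without Sets 1 to 4, and between -1.07 and 0.36 when a library or set was left out by condition alone. Akt1 lay between -0.048 and 0.20 and Igf2bp3 between -0.12 and 0.32 in the same alternatives, and Igf2bp3 was -0.045 with the block without Set 1. The remaining members kept their direction in every alternative that gave a value. Taking the longest transcript in place of all exons moved the Control level per length to 1.17 for Igf1, 6.81 for Igf1r and 63.2 for Igfbp2, and Igfbp7 and Igfbp4 then overlapped in Notch3IC. Igf2 and Igfbp5 are limited by their few reads. The causes of these changes were not tested.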
